A study of Canis lupus familiaris with 5 samples.

Results

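Described here are 8 dog genes at which DUXC and DUX4 peaks lay on top of each other: PNN, TOP2A, BCL2L2-PABPN1, FYN, GNAQ, MARK3, BIN2 and PLEKHA5. They were selected by name for high fold enrichment of overlapping peaks in the DUXC or the DUX4 list. They are 8 of the 10804 genes with a name in the peak lists and 8 of the 1549 named genes with any overlapping DUXC and DUX4 peak. Since peak strength chose them, fold enrichment, pileup and q at their peaks are given as a description and support nothing. The stated ground of the choice does not include the distance between summits or the place relative to genes and repeats. Nor does it include the DUXC-ALT list or the further peaks of each gene. Earlier results of these data were known at the choice, so these traits may still not be independent of it.

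The study mapped where double homeobox proteins sit on the dog genome by ChIP-seq (sequencing of DNA that an antibody pulls down with a protein) in immortalized canine myoblasts, the dividing precursors of skeletal muscle. The libraries were DUXC and DUXC-ALT, both canine, human DUX4, and luciferase in a polyclonal and a monoclonal line, with 1 library each. The canine proteins were chimeras in which the human DUX4 C-terminal domain replaced their own, so that rabbit antisera raised to that domain could be used. The DUXC and DUX4 lines were monoclonal, so each stands for 1 clone, and the DUXC-ALT line was polyclonal. Per the labels, the DUXC, DUXC-ALT and DUX4 lines were inducible by doxycycline (1 µg/ml for 24 hours) and both luciferase lines were not. Fixation took 11 minutes in formaldehyde at 1%, and the DNA was sheared to 150 to 600 bp. Factor and clone cannot be told apart, and with 1 library per factor no difference has a replicate check, so no p-value is given.

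DUX4 is a transcription factor with a pair of DNA-binding homeodomains. It is normally active in the early embryo and the germ line, and in human skeletal muscle its misplaced expression causes facioscapulohumeral dystrophy. DUXC is the related gene of dogs and other mammals. In human cells DUX4 acts as an activator through its C-terminal domain and binds many repeats, among them long terminal repeats (LTRs) of old endogenous retroviruses.

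The peak lists held 6031 DUXC, 561 DUXC-ALT and 85825 DUX4 peaks on the dog genome build canFam3. Fold enrichment is the authors' own value for each peak, the height over the local background, and pileup is the height itself. Both were read within a list only, because scaling and controls may differ between lists. Peaks of equal value share the best rank among them. The number of reads per library is unknown from the lists. Pileups lay on whole multiples of 1 in the DUXC list and of 0.917 in the DUX4 list, and 1 multiple was taken as 1 sequenced fragment. The median peak held 15 fragments in the DUXC list and 19 in the DUX4 list. Intervals below are exact Poisson 95% intervals and cover counting error only. They are of the fragment count or, for densities per 100 kb, of the number of peaks.

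Every one of the 8 genes had 1 DUXC peak, and each of these overlapped 1 DUX4 peak recorded under the same gene. Over the whole lists 55.7% of DUXC peaks overlapped a DUX4 peak and 3.92% of DUX4 peaks overlapped a DUXC peak. The overlap at the 8 genes was part of how they were chosen, so nothing is read from it. No DUXC-ALT peak was recorded under any of the 8, where 4.65% of the named genes with an overlapping DUXC and DUX4 peak had one. At that background a count of 0 of 8 is no result about these genes. The nearest DUXC-ALT summit was 441127 bp from a DUXC summit, at BCL2L2-PABPN1, and the farthest such distance was 11758545 bp, at MARK3.

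The label of strong joint genes held for DUX4 at all 8 and for DUXC at some of them. By fold enrichment, 3 of the DUXC peaks and 7 of the DUX4 peaks were in the strongest 1% of their lists. In the strongest 5% were 5 DUXC peaks and all 8 DUX4 peaks. Among the 8 genes the fragment count spanned 6.15-fold in the DUXC list and 1.51-fold in the DUX4 list. The genes thus ranged from strong in both lists (PNN, TOP2A, BIN2) to strong in DUX4 with a DUXC peak near the list's middle (GNAQ). The GNAQ peak was slightly above the DUXC median by fold enrichment (7.63, against 7.02) and below it by pileup (13 fragments, against 15).

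**Figure D1:**
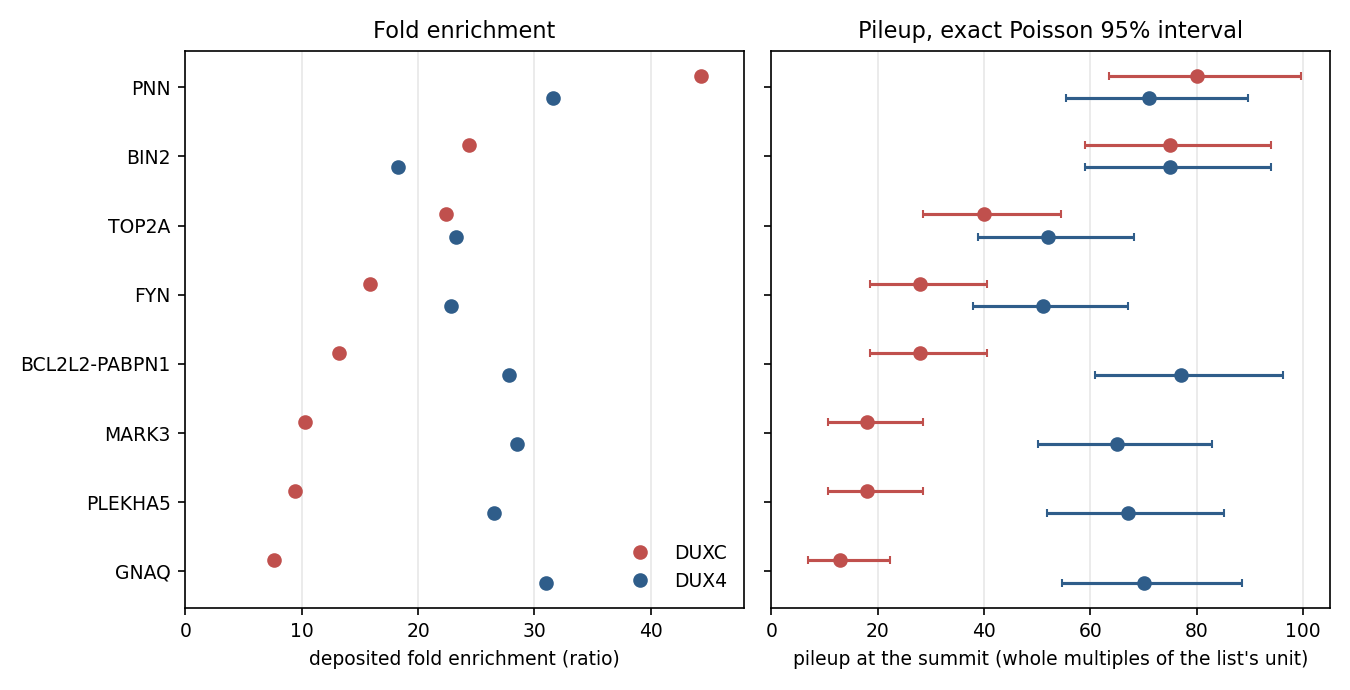
Deposited fold enrichment (left, ratio) and pileup in whole multiples of each list's unit with exact Poisson 95% intervals (right) for the DUXC peak (red) and the DUX4 peak (blue) of each gene. DUXC values run down from PNN (80 fragments) to GNAQ (13 fragments), while DUX4 values stay between 51 and 77 fragments.

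The products of PNN, TOP2A and PABPN1 work in the nucleus. PNN encodes pinin, a protein of nuclear speckles that takes part in splicing and is also found at cell junctions. Its peaks lay just upstream of the gene, which runs from 17354031 to 17360378 on the plus strand of chromosome 8. The DUXC peak (chr8:17353376-17353847) had a fold enrichment of 44.3 and 80 fragments (63.4 to 99.6), and the DUX4 peak (chr8:17353297-17353818) had 31.6 and 71 fragments (55.5 to 89.6). PNN was thereby first in the DUXC list and rank 8 in the DUX4 list by fold enrichment. No other overlapping pair stood as high in both lists.

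By pileup PNN came lower, at rank 77 in the DUXC list and rank 171 in the DUX4 list. The peaks above it were mostly in places of high local background, meaning over 3 times the list's floor. That was so for all 76 higher DUXC peaks and for 143 of the 170 higher DUX4 peaks. At PNN itself the local background was at the floor in both lists. The DUXC summit lay 425 bp and the DUX4 summit 445 bp upstream of the PNN transcription start site (TSS). On the other side, TRAPPC6B, a gene of the vesicle-tethering TRAPP complex, runs away from PNN. Its TSS was 3840 bp from the DUXC summit and 3820 bp from the DUX4 summit. A MIRb copy, an old mammalian short interspersed element, touched both peaks, and the summits were 153 bp (DUXC) and 133 bp (DUX4) outside it.

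TOP2A encodes DNA topoisomerase II alpha, which untangles DNA in dividing cells. Its peaks spanned the TSS itself, at position 22207403 on chromosome 9. The DUXC peak (chr9:22207170-22207717) had a fold enrichment of 22.4 and 40 fragments (28.6 to 54.5), and the DUX4 peak (chr9:22207255-22207673) had 23.3 and 52 fragments (38.8 to 68.2). The DUXC summit was 76 bp and the DUX4 summit 54 bp into the gene. TOP2A was rank 7 by fold enrichment in the DUXC list and rank 138 in the DUX4 list, and by pileup rank 150 (DUXC) and rank 697 (DUX4). No repeat was recorded at either peak, which sets TOP2A apart from the other 7 genes.

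BCL2L2-PABPN1 is in humans the name of a read-through transcript of 2 neighbours, BCL2L2, which encodes a protein that protects against apoptosis, and PABPN1, which encodes the nuclear poly(A)-binding protein. In the lists the name is that of the human homolog of a dog gene with no dog symbol (ENSCAFG00000011482.4, chromosome 8, 3581390 to 3587374, plus strand). RefSeq's dog table (UU_Cfam_GSD_1.0) has no BCL2L2-PABPN1 and places PABPN1 between BCL2L2 and SLC22A17. PABPN1 is the gene mutated in oculopharyngeal muscular dystrophy.

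The DUXC peak there (chr8:3579287-3579584) had a fold enrichment of 13.2 and 28 fragments (18.6 to 40.5). The DUX4 peak (chr8:3579286-3579727) had 27.8 and 77 fragments (60.8 to 96.2), the highest fragment count of the 8 DUX4 peaks. The ranks by fold enrichment were 184 in the DUXC list and 24 in the DUX4 list, and those by pileup 363 (DUXC) and 140 (DUX4). Summits lay 1969 bp (DUXC) and 1919 bp (DUX4) upstream of this gene's start. They were also 10022 bp (DUXC) and 10072 bp (DUX4) downstream of the recorded start of BCL2L2. The DUXC summit was inside a SINEC_b2 copy, a carnivore short interspersed element, and the DUX4 summit was 41 bp outside it.

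FYN, GNAQ and MARK3 encode signalling proteins. FYN is a tyrosine kinase of the Src family. Its peaks were on chromosome 12, in the first kilobase of the shorter of the FYN transcripts, which starts at 68150693 on the minus strand. The DUXC peak (chr12:68149558-68150050) had a fold enrichment of 15.9 and 28 fragments (18.6 to 40.5), and the DUX4 peak (chr12:68149672-68150096) had 22.8 and 51 fragments (38.0 to 67.1). FYN ranked 69 in the DUXC list and 162 in the DUX4 list by fold enrichment, and 363 (DUXC) and 785 (DUX4) by pileup. The DUXC summit was 864 bp and the DUX4 summit 797 bp past that start. From the start of the other FYN transcript the distances were 13049 bp (DUXC) and 12982 bp (DUX4). Both summits were inside a SINEC_Cf copy.

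GNAQ encodes the alpha subunit of the G protein Gq, which couples receptors to phospholipase C. The peaks lay in intron 1 of 5 on chromosome 1, inside a MER21C copy, the LTR of an old endogenous retrovirus. The DUXC peak (chr1:80766140-80766467) had a fold enrichment of 7.63 and 13 fragments (6.92 to 22.2). The DUX4 peak (chr1:80765958-80766607) had 31.0 and 70 fragments (54.6 to 88.4). GNAQ had the largest gap in place of the 8, at rank 2296 of 6031 in the DUXC list and rank 9 of 85825 in the DUX4 list by fold enrichment. By pileup it was rank 3984 (66.1% from the top, tied with 653 other peaks) in the DUXC list and rank 177 in the DUX4 list. Its LTR copy covered 96.6% of the DUXC peak and 76.8% of the DUX4 peak. Summits were 33102 bp (DUXC) and 33113 bp (DUX4) into the gene, and the joint site was therefore far from the promoter.

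MARK3 encodes a kinase that phosphorylates microtubule-associated proteins. Its peaks were in intron 1 of 18, on chromosome 8. The DUXC peak (chr8:71161813-71162197) had a fold enrichment of 10.3 and 18 fragments (10.7 to 28.4), and the DUX4 peak (chr8:71161724-71162222) had 28.5 and 65 fragments (50.2 to 82.8). The rank by fold enrichment was 687 in the DUXC list and 21 in the DUX4 list. By pileup it was 1630 (27.0% from the top, tied with 300 other peaks) in the DUXC list and 221 in the DUX4 list. Summits were 13574 bp (DUXC) and 13560 bp (DUX4) into the gene. A SINEC_a1 copy lay under the downstream part of both peaks, with the DUXC summit 23 bp and the DUX4 summit 37 bp outside it.

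BIN2 and PLEKHA5 encode proteins that bind membranes. BIN2 has a BAR domain, which senses and shapes curved membranes, and is best known from blood cells. The DUXC peak (chr27:3563560-3564081) had a fold enrichment of 24.4 and 75 fragments (59.0 to 94.0), and the DUX4 peak (chr27:3563642-3564049) had 18.3 and also 75 fragments. By fold enrichment BIN2 had the opposite tilt to GNAQ, at rank 4 (0.0663% from the top) in the DUXC list and rank 1071 (1.25%) in the DUX4 list. Its local background was 2.55 times the floor in the DUXC list and 2.58 times the floor in the DUX4 list, the highest of the 8 genes in both. By pileup, which takes no account of background, BIN2 was rank 80 in the DUXC list and rank 148 in the DUX4 list. That is 1.33% (DUXC) and 0.172% (DUX4) from the top, so the tilt did not hold by pileup. The summits were 695 bp (DUXC) and 680 bp (DUX4) past the TSS and 18 bp (DUXC) and 3 bp (DUX4) outside a SINEC_a2 copy.

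PLEKHA5 has a pleckstrin homology domain, a fold that binds phosphoinositide lipids. Its peaks lay in intron 3 of 25, on chromosome 27, with both summits inside an MLT1D copy, which is also an LTR. The DUXC peak (chr27:27956248-27956561) had a fold enrichment of 9.39 and 18 fragments (10.7 to 28.4). The DUX4 peak (chr27:27956195-27956672) had 26.6 and 67 fragments (51.9 to 85.1). PLEKHA5 ranked 952 in the DUXC list and 38 in the DUX4 list by fold enrichment. By pileup it ranked 1630 in the DUXC list, tied with 300 other peaks including that of MARK3, and 196 in the DUX4 list. At 67610 bp (DUXC) and 67588 bp (DUX4) from the start of the gene, its summits were the deepest inside a gene among the 8.

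**Figure D2:**
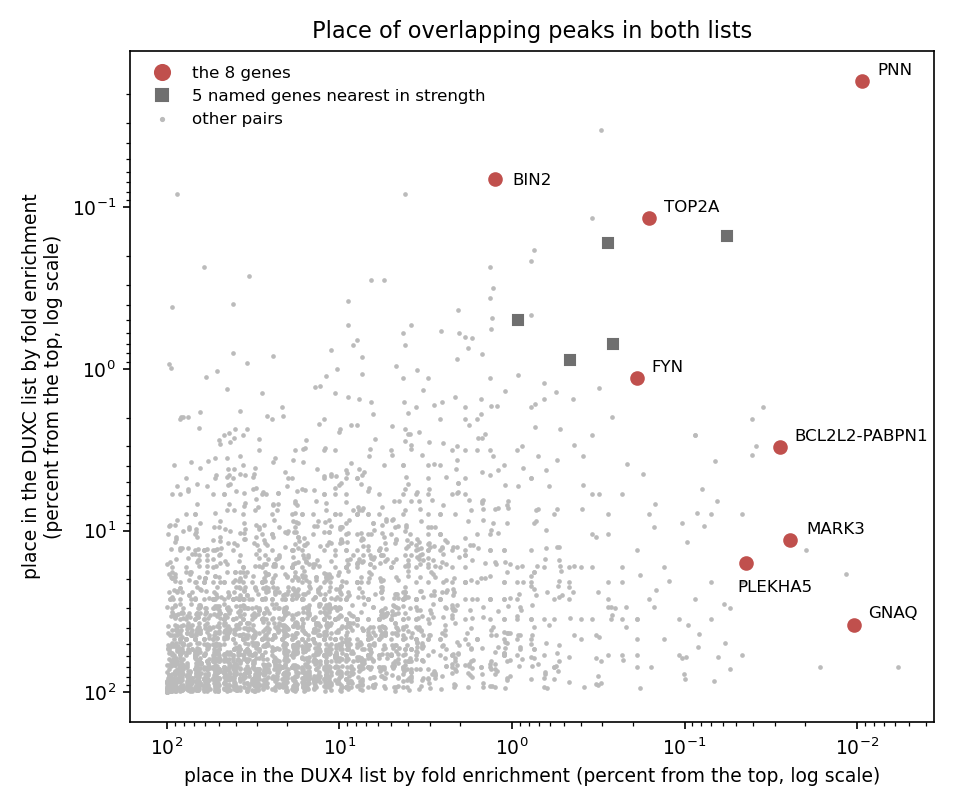
Place of each overlapping pair in the DUXC list (vertical) and in the DUX4 list (horizontal), as the percent of the list at or above that fold enrichment, on log axes that run to stronger peaks at the right and the top. PNN is alone in the top right corner, while MARK3, PLEKHA5 and GNAQ stand at 11.4%, 15.8% and 38.1% of the DUXC list and within 0.0443% of the DUX4 list.

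By place, the genes fell into a promoter group and an intron group. The peaks at PNN, TOP2A, BCL2L2-PABPN1, FYN and BIN2 were recorded as promoter and those at GNAQ, MARK3 and PLEKHA5 as intron. So 5 of 8 DUXC peaks were at a promoter, where 10.2% of all 3362 overlapping pairs were. That share takes in weak pairs and pairs without a gene name. The 5 other named genes highest in both lists, given below, had no joint peak recorded as promoter. Theirs were recorded as intron (KIAA0408, PSD3, TSC1), between genes (KCNQ3) and 3' untranslated region (LGALS1). The DUXC peaks of KIAA0408 and LGALS1 were at -18354 and -8390 bp from the recorded TSS, which is upstream of it. The intron and the untranslated region there are thus not those of the transcript that gave the name. The DUXC fold enrichment was 13.2 to 44.3 in the promoter group and 7.63 to 10.3 in the intron group. For DUX4 it was 18.3 to 31.6 in the promoter group and 26.6 to 31.0 in the intron group. These ranges use the values that chose the genes, so they carry no test. The same split was not made over all 3362 pairs, so the ranges do not compare promoters with introns in general. A SINEC copy was touched by the DUXC peak at 4 of the 8, where 32.5% of all pairs had one, so that share is close to the background at this number of genes.

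The summits, which are not part of the stated ground of the choice, were close together. Relative to the direction of each gene, the DUXC summit was downstream of the DUX4 summit by 20 bp at PNN, 22 bp at TOP2A, 67 bp at FYN, 14 bp at MARK3, 15 bp at BIN2 and 22 bp at PLEKHA5. It was upstream by 50 bp at BCL2L2-PABPN1 and by 11 bp at GNAQ. That is downstream in 6 of 8 genes, where 49.0% of all pairs were downstream. The median distance without its sign was 21 bp at the 8 genes and 33 bp over all 3362 pairs, whose quartiles were 13 and 63 bp. FYN was the farthest apart, and 77.1% of all pairs were as close or closer, while at GNAQ only 21.3% were. In the strongest 10% of pairs (336) the median distance was 24 bp when chosen by DUXC fold enrichment and 32 bp when chosen by DUX4 fold enrichment. All 8 were within 100 bp, as were 89.0% of all pairs, so closeness to that degree was common to overlapping peaks.

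**Figure D3:**
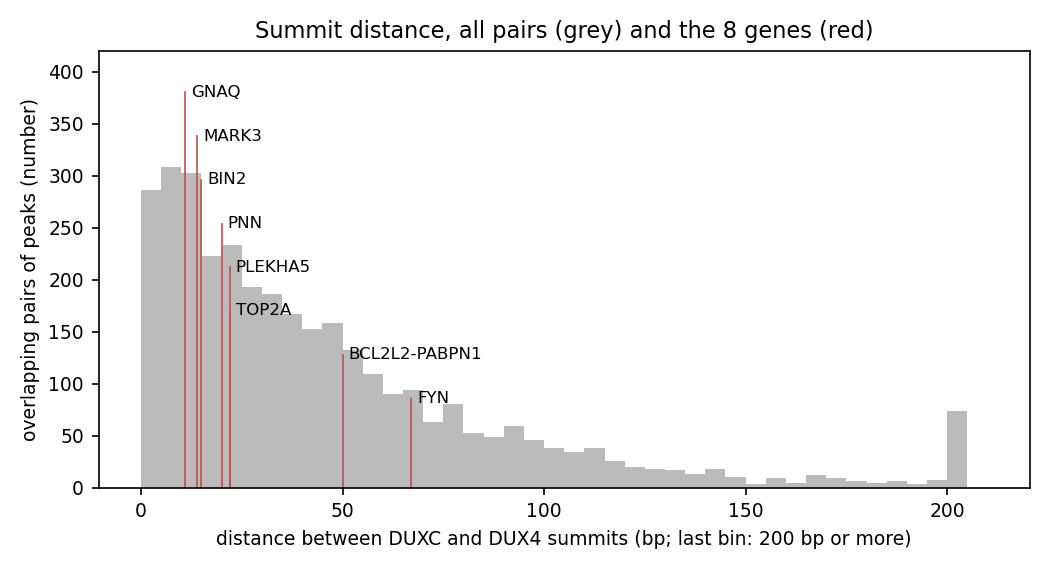
Histogram of the distance in bp between DUXC and DUX4 summits for all 3362 overlapping pairs (grey, number of pairs per bin), with the 8 genes as red lines whose heights only separate the names. The genes stand between 11 bp (GNAQ) and 67 bp (FYN), within the main body of the histogram.

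Which list had the wider peak differed between the genes. DUXC peaks were wider than DUX4 peaks at TOP2A (548 against 419 bp), BIN2 (522 against 408 bp) and FYN (493 against 425 bp). They were narrower at PNN (472 against 522 bp), MARK3 (385 against 499 bp), BCL2L2-PABPN1 (298 against 442 bp), PLEKHA5 (314 against 478 bp) and GNAQ (328 against 650 bp). DUXC was thus the wider in 3 of 8, where it was the wider in 28.8% of all pairs. At MARK3, BCL2L2-PABPN1, PLEKHA5 and GNAQ the DUXC peak lay wholly inside the DUX4 peak, and at TOP2A and BIN2 the DUX4 peak lay wholly inside the DUXC peak. The median width was 428.5 bp (DUXC) and 460 bp (DUX4) at the 8 genes and 307 bp (DUXC) and 371 bp (DUX4) over all pairs. Strong peaks were wide in general, with medians of 396 bp in the 10% of pairs with the strongest DUXC peaks and 438 bp in the 10% with the strongest DUX4 peaks. At each of the 8 genes the shared stretch was at least 50% of both peaks, as in 94.1% of all pairs. The smallest share was at GNAQ, where the 328 bp in common made up 100% of the DUXC peak and 50.5% of the DUX4 peak.

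**Figure D4:**
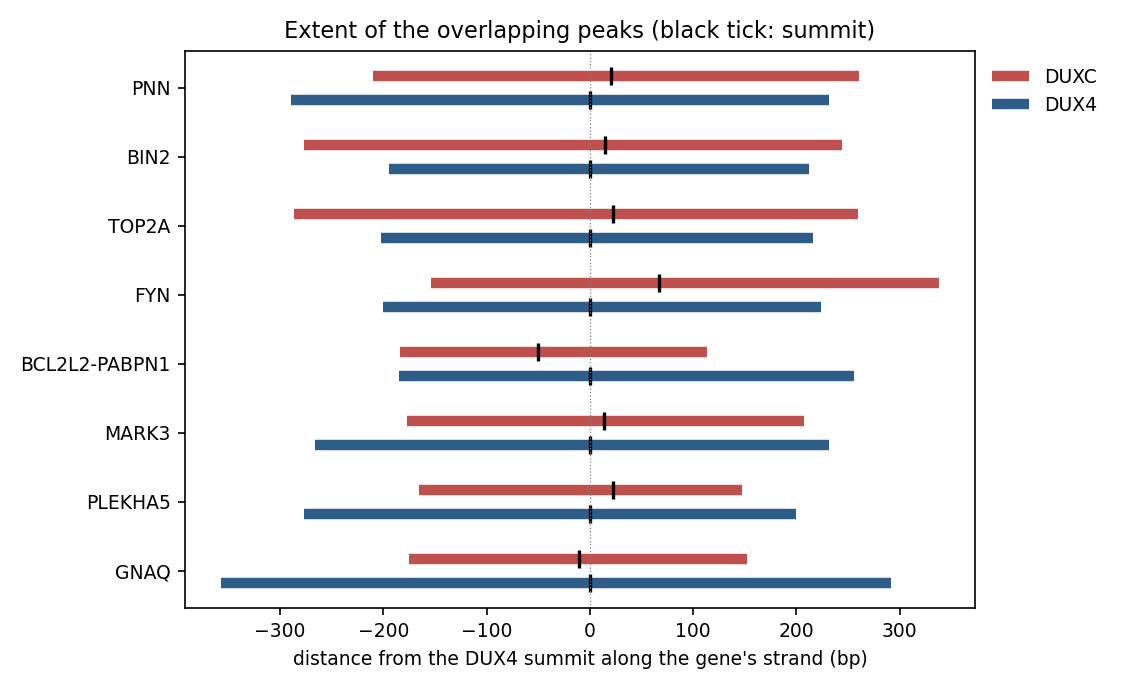
Extent of the DUXC peak (red, above) and the DUX4 peak (blue, below) of each gene in bp from the DUX4 summit, with the direction of the gene to the right and summits as black ticks. DUXC peaks are the longer at BIN2, TOP2A and FYN, and the DUX4 peak of GNAQ is the longest at 650 bp.

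The local background, which the peak caller derives for each site, was nearly the same in both lists once each value was divided by its list's floor. At 7 of the 8 genes the DUXC value was 0.999 to 1.000 times the DUX4 value, and at BIN2 the ratio was 0.991. All 8 were within 5%, as were 56.8% of all pairs. Which library served as control for each list is not given in the sources used here.

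Beyond the joint sites, DUX4 had many peaks of its own at these genes and DUXC had none. Under the 8 names were recorded 8 DUXC, 0 DUXC-ALT and 39 DUX4 peaks, which leaves 31 further DUX4 peaks. None of the 31 overlapped a DUXC peak. A second DUXC peak was present at 21.8% and a second DUX4 peak at 82.0% of all named genes with an overlapping pair, so 0 of 8 and 6 of 8 are near what the lists hold in general. The lists differ in length by so much that these counts do not compare the factors. In each of the 6 genes with further DUX4 peaks, the joint peak had the highest DUX4 fold enrichment of the gene, which follows in part from the choice. The median fold enrichment of the 31 was 7.06, near the DUX4 list's median of 7.37.

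PLEKHA5 held 21 of the 31. They had fold enrichments of 4.38 to 14.0, and 9 lay in the gene and 12 upstream of it, up to 233597 bp from the joint DUX4 summit. The nearest was 1578 bp away in the same intron (6.61). Only 2.97% of named genes with a pair had as many DUX4 peaks as PLEKHA5, whose gene is 246997 bp long. Counting every peak inside its span, DUX4 had 14 summits, or 5.67 per 100 kb (3.10 to 9.51), beside 3.69 per 100 kb over the genome. The interval includes the genome's value. The joint peak, which was part of the choice, is among the 14, so nothing is read from the comparison.

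GNAQ had 6 further DUX4 peaks, all inside the gene. The strongest was in the same intron as the joint peak, 59244 bp downstream (14.7), and another lay at a promoter 69498 bp downstream (11.2), by the start of the second recorded GNAQ transcript. With 7 summits in 194864 bp, the joint one included, its density was 3.59 per 100 kb (1.44 to 7.40). Each of 4 other genes had 1 further DUX4 peak. That of PNN was past the end of the gene, 10098 bp from the joint summit, in an L1ME3B copy (15.9). MARK3's was 26045 bp upstream (12.3), FYN's 64334 bp upstream (5.83) and BIN2's in intron 2, 9458 bp downstream, in a MER21C copy (5.44).

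TOP2A and BCL2L2-PABPN1 had no further peak recorded under their names, yet DUX4 peaks lay close by under other names. In the body of TOP2A were 3, in intron 10 (16.3) and intron 24 (5.50), both recorded under TAF12, and in intron 29 under an unnamed gene (5.72). Near BCL2L2-PABPN1 the closest was 4392 bp away and recorded under BCL2L2 (9.79). MARK3 also had DUX4 peaks in intron 6 (5.72, unnamed gene) and intron 16 (15.3, recorded under CKB, the creatine kinase gene). The span of PLEKHA5 held 4 more DUX4 peaks (5.52 to 13.7), all recorded under an unnamed gene. Counts by recorded gene thus left out DUX4 peaks inside TOP2A, MARK3 and PLEKHA5.

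DUXC peaks were sparse around the joint sites. The nearest other DUXC summit was 39255 bp away at BIN2, 46886 bp at FYN and 94560 bp at BCL2L2-PABPN1. At the other 5 genes it was between 200397 bp (MARK3) and 614747 bp (PLEKHA5) away. Within 100 kb of the joint DUX4 summit the total number of DUXC peaks was 4 at BIN2, 3 at FYN, 2 at BCL2L2-PABPN1 and 1 at each of the others. The DUX4 list had between 2 (FYN) and 12 (PLEKHA5) in the same windows, and the DUXC-ALT list had 0 in all of them. At FYN alone of the 8 was the DUXC count the higher, by 3 to 2. Counts this small from lists of unlike length do not compare the factors.

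**Figure D5:**
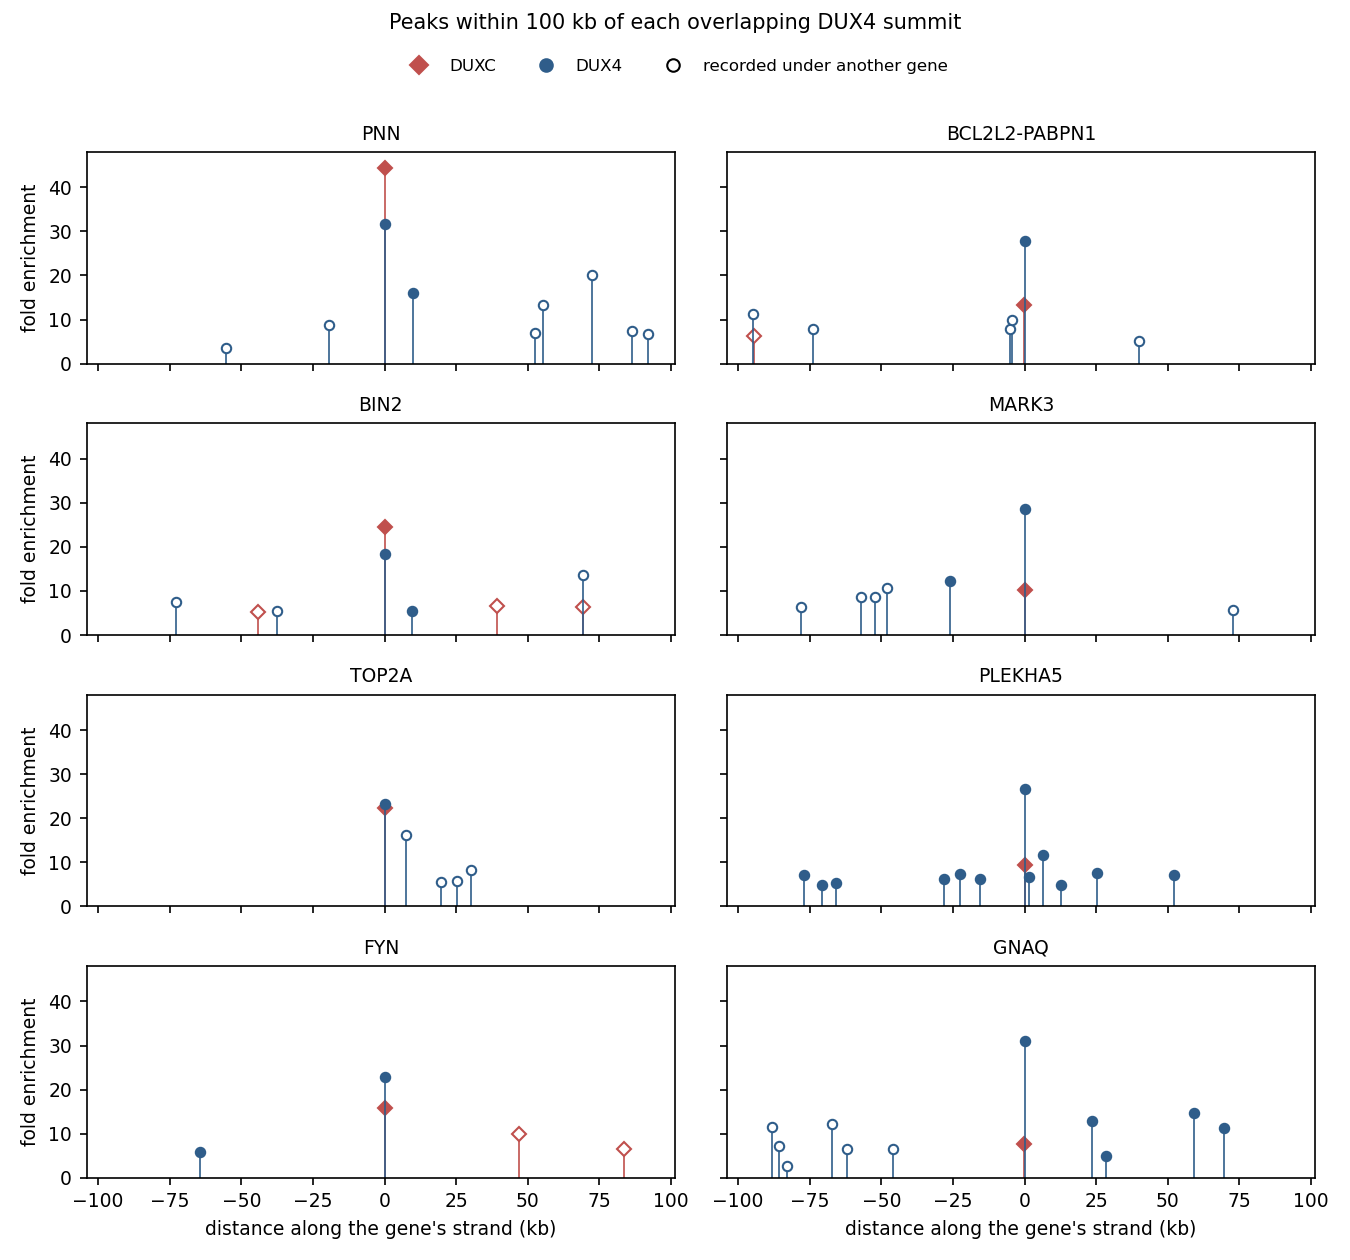
Fold enrichment of every DUXC peak (red diamonds) and DUX4 peak (blue circles) within 100 kb of the joint DUX4 summit of each gene, by distance along the gene in kb, with open symbols for peaks recorded under another gene. The joint site is the highest DUX4 peak in all 8 windows, and DUXC peaks away from it appear at BIN2, FYN and BCL2L2-PABPN1 alone.

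Other named genes had joint sites of like strength. Pairs were ordered by the larger of their places in the DUXC and DUX4 lists, by fold enrichment, and the 5 highest named genes outside the 8 were taken. KIAA0408 came second after PNN, with 22.1 (DUXC) and 25.9 (DUX4) at a site upstream of its recorded TSS with summits 7 bp apart. KCNQ3, a neuronal potassium channel gene, had 21.6 (DUXC) and 22.0 (DUX4) in an MLT1K copy with summits 1 bp apart. LGALS1, the galectin-1 gene, had 17.4 (DUXC) and 22.2 (DUX4), 2 bp apart in an MLT1L copy. PSD3 had 16.8 (DUXC) and 20.7 (DUX4), 59 bp apart, and the tuberous sclerosis gene TSC1 had 18.4 (DUXC) and 18.9 (DUX4), 1 bp apart. In that order PNN was place 1, TOP2A 3, FYN 14, BIN2 16, BCL2L2-PABPN1 67, MARK3 302, PLEKHA5 441 and GNAQ 1178. Of the 14 pairs at least as high as FYN, 9 had a gene name and 5 did not, so the 8 genes are not the complete top of that order.

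Relatives of the 8 genes give a view of their families. Of 100 relatives listed, 55 had a name in the lists. A gene is named there only if it has a peak in at least 1 list, so genes without any peak are not counted. The shares below are therefore not shares of all dog genes, and the DUX4 shares at any distance are high by construction. A DUXC peak was recorded at 13 of the 55, a DUXC-ALT peak at 3 and a DUX4 peak at all 55. As shares of the 55 these are 23.6% (DUXC), 5.45% (DUXC-ALT) and 100% (DUX4), where all 10804 named genes had 23.8% for DUXC, 2.47% for DUXC-ALT and 97.5% for DUX4. The pooled DUXC share was close to that of all named genes, and the DUXC-ALT share rests on 3 genes. Within 5 kb of the recorded TSS the counts were 5 (9.09%, DUXC), 0 (DUXC-ALT) and 17 (30.9%, DUX4), where all named genes had 5.48% for DUXC, 0.463% for DUXC-ALT and 38.3% for DUX4. Single families held between 2 and 10 named genes, and no difference between a family and all named genes was tested.

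Among partners of pinin in splicing complexes, ACIN1 had a DUXC promoter peak (9.26) that overlapped a DUX4 peak (8.37). The highest DUX4 value of that list was also at ACIN1 (12.5), at another site. Among topoisomerases, TOP1 had a DUXC peak (5.38) in intron 2 over a DUX4 peak (12.9). TOP2B, the sister gene of TOP2A, had the highest DUX4 value (22.8, intron 3) of any relative and no DUXC peak. The poly(A)-binding protein gene PABPC4 had a DUXC peak (8.13) and a DUX4 peak (17.7) at different sites. None of the 10 named BCL2 family genes had a DUXC peak, where 23.8% of all named genes had one. Nothing is read from so few genes. BCL2L11, the gene of the cell death protein BIM, had the highest DUX4 value in that family (13.0).

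Among G protein alpha subunits, 5 of 9 named genes had a DUXC peak, namely GNAI3 (7.66), GNAT3 (6.78), GNAI2 (5.51), GNAS (5.26) and GNAL (4.55). That is 55.6% of this family, above the 23.8% of all named genes, and their strongest peaks stood 35.0% (GNAI3) to 94.4% (GNAL) from the top of the DUXC list. It was the highest DUXC share of the 9 families looked at, rests on few genes and was not tested. Within 5 kb of the TSS it was 3 of 9, where all named genes had 5.48%. The peaks of GNAT3 and GNAI3 were 76218 and 12185 bp from the TSS. Of the 5 genes, GNAS and GNAL had DUXC peaks that overlapped DUX4 peaks, and GNAT3 also had a DUXC-ALT peak (6.59). GNAI1 had the highest DUX4 value of the family (16.3). In the kinase list related to MARK3, MELK (8.21) and MARK1 (3.62) had DUXC peaks that overlapped DUX4 peaks, and SIK2 had the highest DUX4 value (13.2). None of the 6 named Src family relatives of FYN had a DUXC peak, and with the 23.8% of all named genes nothing is read from so few. BLK had a DUXC-ALT peak in a MER21B copy (10.6), and LYN had the highest DUX4 value (16.5). In the PLEKHA list, PLEKHA1 (8.88) and PLEKHA8 (6.89) had DUXC peaks over DUX4 peaks, and the highest DUX4 value was at PLEKHA2 (17.2). Among BAR domain relatives of BIN2, SH3GL3 had DUXC (6.34) and DUXC-ALT (9.42) peaks at a MER21C copy and a DUX4 peak (5.79) over the DUXC one, and SH3GL2 had the highest DUX4 value (16.3). The highest DUXC value of these relatives, at ACIN1 (9.26), was above that of GNAQ (7.63) and below those of the rest of the 8 genes. The 8 were chosen for strength and the relatives were not, so nothing is read from this comparison.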

How the data were processed

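The members and the lists of relatives were chosen with earlier results of these data known. Peaks were taken from 3 deposited lists, 1 per factor, on canFam3. Tools listed without roles in the submitters' processing notes are MACS2 2.1.0, BWA 0.7.10 and CASAVA, and thresholds and control libraries are not given in the sources used here. The authors' pileup was taken to be the signal at the peak's top and the authors' fold enrichment as the ratio (pileup + 1) / (local background + 1), which gave the local background. The floor was percentile 1 of local backgrounds in a list. The deposited −log10 q-value is the peak caller's own and was at least 2.03 (DUXC), 2.08 (DUXC-ALT) and 2.03 (DUX4). All pileups up to 40 multiples were within 0.05 of a whole multiple of the list's unit.

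Names came from the dog symbol in the lists, else the human homolog symbol. Peaks were paired by an overlap of at least 1 bp, and summit distances to the TSS were computed from summits, since the deposited distance runs from the peak's edge. All 8 genes were named, the 5 other named genes highest in both lists, relatives with a DUXC or DUXC-ALT peak, and per family the highest DUX4 peak. Both luciferase libraries were not analysed here. Pairing was checked on simulated peaks with known overlaps. Python 3.11.15, numpy 2.4.6, pandas 2.3.3, scipy 1.17.1 and matplotlib 3.10.9 were used. Alternatives changed the overlap rule, the minimum strength, the measure ranked and the distance to the gene.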

Additional observations from a re-analysis of the deposited data

How the results depend on the processing

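Of 114 alternative values, 32 stayed within the limits set for no change and 82 did not, most of them ranks of single genes. All 8 joint sites were kept when 50% of both peaks had to overlap, when summits had to be at most 100 bp apart and at a −log10 q of at least 5. At a fold enrichment of at least 10 in both lists 6 were kept, without PLEKHA5 and GNAQ. The median place of the 8 DUXC peaks by pileup, as a percent of the list, was 6.02, and it was 2.1 by fold enrichment, 2.55 by −log10 q and 3.13 without peaks of raised background. For DUX4 it was 0.217, and 0.0361 by fold enrichment, 0.0623 by −log10 q, 1.77 among overlapping peaks only and 0.0474 without raised background. The cause was not tested. Further DUX4 peaks numbered 31, but 18 in the gene or within 5 kb and 14 with a TSS within 50 kb, since distance removes peaks. Likewise relatives with a peak fell to 5 (DUXC), 0 (DUXC-ALT) and 17 (DUX4) within 5 kb of a TSS, against 13, 3 and 55 at any distance. The median summit distance stayed at 21 bp when each peak had to overlap exactly 1 peak. No paired analysis was possible because each factor has 1 library, and no replicate could be left out. Read depth is unknown, and low DUXC counts such as 13 fragments at GNAQ leave wide intervals.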
